A study of Mus musculus with 14 samples.

Results

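The 39 genes described here encode the enzymes, transporters and regulators that carry glucose and glycogen to pyruvate and lactate in muscle. They were taken by gene symbol from a fixed list of glycolysis and glycogen metabolism genes, and all 39 were found among the 49585 genes of the deposited expression tables. RNA-seq was performed on mouse hind limb skeletal muscle in 4 groups of 3 libraries: wild type (WT) without injury, Myf6 KO without injury, WT with injury and Myf6 KO with injury. Myf6, also called MRF4, is a myogenic transcription factor of muscle fibres, and KO stands for knockout. The labels give neither the kind of injury nor the time after it, nor the knockout allele, strain, age or sex. The library descriptions are numbers followed by L or R, read here as the animal and the side of its body, though the labels do not say so. Every uninjured library is an L and every injured library an R, so injury and this letter cannot be told apart. No number occurs in both genotypes, so genotype cannot be told apart from litter or batch. Nothing in the labels says more of the replicates than that they are separate libraries with separate numbers, so the p-values measure the spread between these samples. A further pair of libraries, from cultured primary myotubes whose source was adult satellite cells of muscle, held a chromatin immunoprecipitation of Myf6 with a Flag antibody and its control.

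Glycolysis splits glucose into pyruvate and yields ATP without oxygen, and fast muscle fibres depend on it during short, intense work. Glycogen is the glucose store of the fibre. Phosphorylase releases glucose units from it on a nerve or hormone signal, and glycogen synthase, branching enzyme and glycogenin build it. Several steps have paired isoforms, of which one is typical of mature muscle (Pfkm, Pgam2, Eno3, Pygm, the insulin-responsive transporter Slc2a4) and the other is found widely or in other organs (Pfkl of liver, Pgam1, Eno1, Pygb of brain, Slc2a1).

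The 12 RNA libraries held 1880087 to 49392472 reads, and WT uninjured replicate 2 was the shallowest. Values are in RPM, reads scaled to a fixed total per library, which are not corrected for gene length, so each gene is compared here between libraries and not with other genes. A count of 3 reads, taken as the floor of detection, corresponded to 0.0607 to 1.60 RPM. The targeted gene was lower in every knockout library: Myf6 stood at 46.2, 25.0 and 111 RPM in uninjured WT and at 1.86, 3.46 and 2.27 RPM in uninjured KO muscle, and at 47.9, 121 and 72.5 RPM against 3.32, 2.88 and 3.02 RPM after injury. Checked against the tissue label, the 11 fast fibre markers summed to 179025 to 274682 RPM over the libraries, and the 5 leukocyte markers to 17.1 to 53.6 RPM, also after injury. Mitochondrial genes took 3.63% to 23.2% of the reads. In WT they took 13.8% to 22.3% in uninjured and 8.35% to 14.8% in injured muscle. Within the KO groups, replicate 2 had the most, with 15.3% in uninjured and 23.2% in injured muscle, against 3.63% to 6.76% in the other 4 KO libraries. Those 4 lay below every WT library, and uninjured KO replicate 2 lay within the range of uninjured WT.

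Of the 39 genes, 38 reached 1 RPM in at least 3 of the libraries compared and were tested. Aldoc, the aldolase isoform of brain, was the exception, with 0 to 1.06 RPM and 3 reads or fewer in 4 libraries. Together the 39 genes took 5.82% to 6.03% of the reads in uninjured WT, 6.84% to 7.99% in uninjured KO, 5.95% to 7.20% in injured WT and 5.08% to 6.94% in injured KO muscle. The uninjured groups did not overlap in this share and the injured groups did. The separation is for shares of all reads. As shares of the reads outside mitochondrial genes, the uninjured groups overlapped. Aldoa, the muscle aldolase, alone supplied 36.1% to 55.9% of the reads of the 39 genes, and without it the uninjured WT range (35640 to 36921 RPM) lay inside the KO range (35262 to 43718 RPM). In bulk tissue fewer cells of a type and less RNA per cell cannot be told apart.

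Binding of Myf6 was examined at 37 of the genes, those with a position in the RefSeq gene table of GRCm38.p6 (Slc2a4 and Gpd1 had none). A gene was counted as having a peak where the summit of a peak of the deposited list lay in the gene body or up to 5000 bases upstream. By this rule 14 of the 37 genes (37.8%) had a peak, against 2671 of 9488 expressed genes with a position (28.2%). The 37 include Aldoc, which was too low to be tested and had no peak, while the 9488 are tested genes only. With a fold enrichment of at least 10, the order turned, with 2 of the 37 (5.4%) against 10.4% of all. The median gene length was 21779 bases for the members and 23523 bases for all, and with 1 library no test was made. The 14 genes were Aldoa, Eno1, Eno3, Fbp2, Gbe1, Gyg, Gys1, Hk2, Pfkm, Pgam2, Phkb, Pkm, Tpi1 and Ugp2. The fold enrichment over local background, the authors' value for each peak, was highest at Eno1, the widely expressed enolase, with 22.2 at a summit 8835 bases downstream of the nearest RefSeq start, and at Gys1, muscle glycogen synthase, with 12.4 at 2844 bases downstream. Pkm, which encodes pyruvate kinase of muscle, held 3 summits in its body, at 3347, 10231 and 16367 bases from the nearest of its RefSeq starts, with fold enrichments of 9.73, 3.06 and 8.47. At Aldoa 2 summits lay 1926 and 2327 bases upstream, with 6.35 and 8.45.

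**Figure D1:**
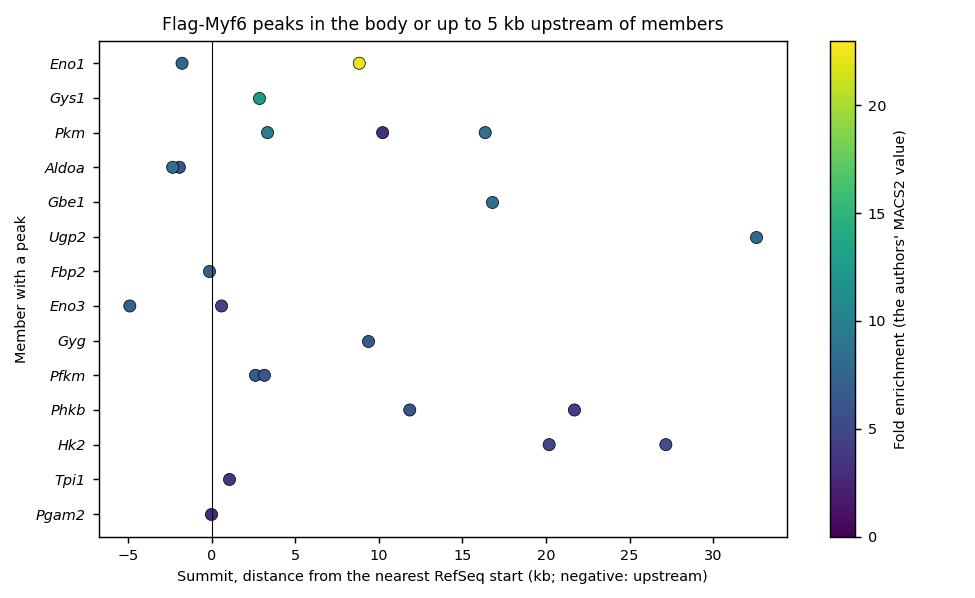
Distance in kilobases from the nearest RefSeq start used here to each Myf6 peak summit at the 14 genes with a peak, 1 gene to a line. Negative values are upstream, and the point's colour gives the authors' fold enrichment. A start used here need not be the outer end of the gene. For Eno3 it is base 70657176, and the gene begins at base 70653125. Of the 14 genes, 3 (Eno3, Fbp2 and Pgam2) had a summit within 1000 bases of a start, and the summits at the other genes were farther upstream or in the gene body.

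In 3 of the 37 genes (8.11%, against 4.37% of all) a summit lay within 1000 bases of a start, 598 bases downstream at Eno3, 163 bases upstream at Fbp2 and 24 bases upstream at Pgam2. The start regions of Fbp2 and Pgam2 are shown because the summit fell inside the 300-base window from 250 bases before to 50 bases after the start. Fbp2 encodes the muscle fructose-1,6-bisphosphatase, which runs opposite to phosphofructokinase, and Pgam2 the muscle phosphoglycerate mutase. Both windows are on the minus strand of GRCm38.p6 and are credited to RefSeq. They are printed 5′ to 3′ with every E-box, the motif CANNTG that myogenic factors recognise, in capitals. CANNTG equals its own reverse complement, so a match holds on both strands, and CAGCTG is one of its forms. The Fbp2 window is chr13:62858351-62858650 and the Pgam2 window is chr11:5803747-5804046.
Fbp2: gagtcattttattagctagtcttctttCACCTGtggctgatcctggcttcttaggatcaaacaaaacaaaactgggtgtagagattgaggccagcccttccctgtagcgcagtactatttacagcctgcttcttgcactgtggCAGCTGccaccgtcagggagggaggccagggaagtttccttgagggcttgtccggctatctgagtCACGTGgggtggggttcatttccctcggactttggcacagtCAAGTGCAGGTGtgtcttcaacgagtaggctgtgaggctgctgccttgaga
Pgam2: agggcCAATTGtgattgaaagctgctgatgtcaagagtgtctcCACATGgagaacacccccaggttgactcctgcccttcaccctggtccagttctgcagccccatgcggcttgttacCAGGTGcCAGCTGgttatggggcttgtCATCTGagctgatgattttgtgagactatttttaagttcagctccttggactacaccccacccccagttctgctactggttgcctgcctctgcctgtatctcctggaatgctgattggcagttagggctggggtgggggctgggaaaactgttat
Each window held 5 E-boxes. The Fbp2 peak, chr13:62858449-62858585 with a fold enrichment of 7.20, covered bases 66 to 202 of the window and 1 of its E-boxes, the CAGCTG at bases 144 to 149. Its centre lay 58.5 bases from the summit, and that of the CACCTG outside the peak 57.5 bases. The Pgam2 peak, chr11:5803745-5803988 with a fold enrichment of 2.71, reached past the window's end, began at its base 59 and covered 3 E-boxes, at bases 119 to 124, 126 to 131 and 146 to 151, of which the middle one is a CAGCTG. Their centres lay 105.5, 98.5 and 78.5 bases from the summit. In all, 39 of the 53 start windows of the members (73.6%) held CANNTG, against 72.3% of 32851 RefSeq windows of the same length, and 14 (26.4%) held CAGCTG, against 16.3%.

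The first comparison asks which of these genes differ between KO and WT in muscle that was not injured. No member passed the limma test at an adjusted p of 0.05, where 0.281% of the 12460 genes tested were called. At an unadjusted p under 0.05 limma gave 5 of 38 (13.2%), beside 14.2% of all genes. Of these, Pfkl and Gpd1 were higher in KO, and Pfkfb1, Pfkfb3 and Pkm were lower. Tested on recovered reads, edgeR called 1 member (0.441% of all genes) and DESeq2 called 4 (5.32% of all genes). The estimates of the 38 divided into 19 above and 19 below 0, with a median log2 difference of 0.0055, beside -0.18 over all genes. Over all genes 36.8% of estimates were above 0. All 3 KO libraries lay above all 3 WT libraries for 5 members (13.2%; 6.20% of all genes) and below them for 3 (7.89%; 15.5% of all genes). These counts are of RPM. When mitochondrial genes were left out of the total, Pfkl and Gpd1 stayed above WT, and Gpi1, Aldoa and Slc16a3 overlapped. The median of all genes depends on the scaling, at -0.18 in RPM, -0.02 with TMM, -0.08 with upper quartile scaling and -0.32 when mitochondrial genes are left out of the total. The members' median stood 0.17 to 0.22 above it under these 4 scalings, with 23 to 24 members above it.

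**Figure D2:**
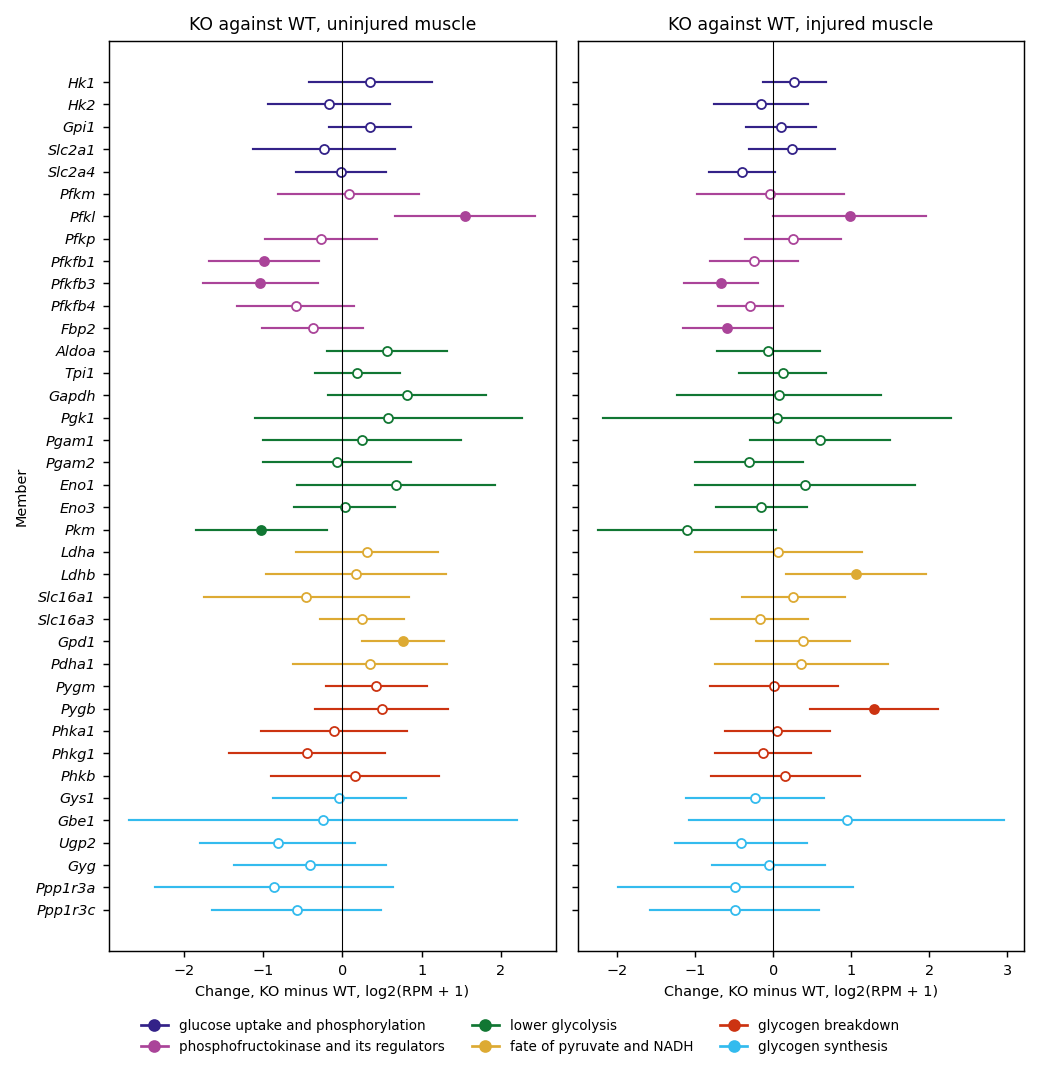
Log2 difference between KO and WT, on the log2(RPM + 1) scale, for the 38 tested genes in uninjured and in injured muscle, with 95% intervals, coloured by the role of the gene, filled where the unadjusted limma p was under 0.05. In each state 5 of 38 points are filled, Pfkl and Pfkfb3 in both.

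Phosphofructokinase commits glucose to glycolysis, and its regulators set its speed. In uninjured muscle 3 of the 7 tested genes of this group had an unadjusted p under 0.05, beside 14.2% of all genes. Of the 7 estimates 5 were below 0 (median -0.38), where 36.8% of all genes had estimates above 0. Pfkl, the liver-type subunit, was read at 8.95, 5.32 and 9.72 RPM in the 3 uninjured WT libraries and at 26.7, 15.5 and 35.9 RPM in the KO libraries. The WT value of 5.32 RPM came from the shallowest library and rests on 10 reads. Every KO library was above every WT library. The mean was 3.26 times as high in KO (26.0 ± 10.2 against 7.99 ± 2.35 RPM, SD, n = 3). The log2 difference was 1.55 (SE 0.39, 95% interval 0.66 to 2.44, limma adjusted p = 0.148). In the authors' deposited table Pfkl was the only member with a q-value under 0.05 in uninjured muscle, with a log2 fold change of KO over WT of 1.82 and a q-value of 0.000245. The call depended on the method: over 17 alternatives the adjusted p ran from 2.32e-05 with DESeq2 to 0.599 with 1 library left out, and it was 0.0288 with TMM, 0.0332 with upper quartile scaling and 0.0352 with edgeR. The difference was positive in all 17, at 1.29 to 1.87.

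The muscle-type subunit Pfkm overlapped between the genotypes. It ranged from 1695 to 4579 RPM over the 12 libraries, with a log2 difference of 0.08 (95% interval -0.81 to 0.97) in uninjured muscle. The platelet-type Pfkp, at 9.40 to 18.6 RPM, overlapped too (-0.27, 95% interval -0.98 to 0.43). The Pfkfb genes encode the enzymes that make and remove fructose-2,6-bisphosphate, the main activator of phosphofructokinase. Pfkfb3 stood at 654, 481 and 601 RPM in uninjured WT and at 333, 177 and 369 RPM in uninjured KO muscle, with no overlap. Its mean was 1.97 times as high in WT, and the log2 difference was -1.04 (SE 0.32, limma adjusted p = 0.204). DESeq2 called it (-0.83, adjusted p = 0.0206), and over 17 alternatives the adjusted p was 0.0206 to 0.681. Pfkfb1, named for its liver form and also present in muscle, was read at 72.2, 83.0 and 57.0 RPM in WT and 29.6, 28.3 and 49.5 RPM in KO, again with no overlap. Its log2 difference was -0.99 (SE 0.31, limma adjusted p = 0.206). Pfkfb4 had an estimate on the same side (-0.59, 95% interval -1.33 to 0.15). Fbp2, whose start window is printed above, was read at 85.9, 73.9 and 78.5 RPM in WT and 84.7, 52.9 and 50.2 RPM in KO. The groups overlapped through KO replicate 1, and the log2 difference was -0.38 (SE 0.28, limma adjusted p = 0.590).

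**Figure D3:**
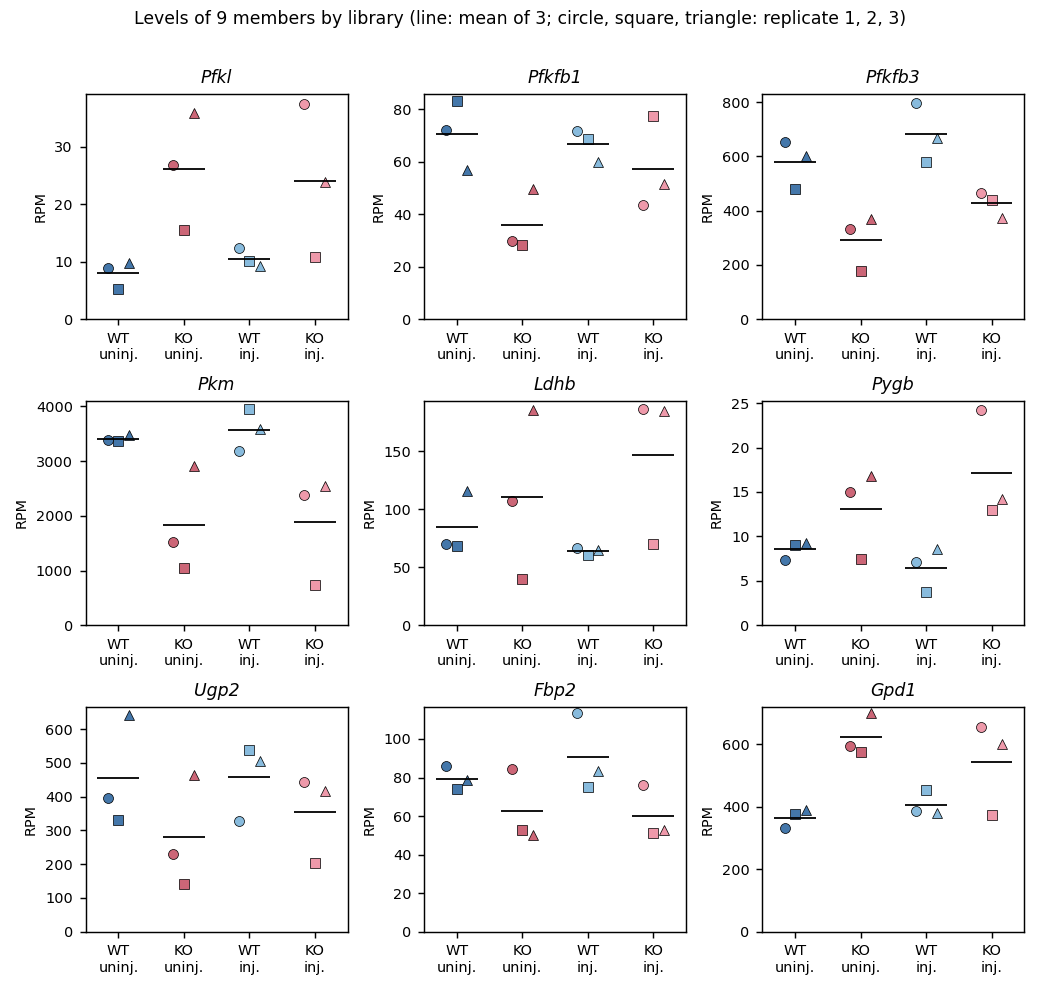
RPM of 9 members in each of the 12 libraries by group, with a line at the group mean and circle, square and triangle for replicates 1, 2 and 3. For Pfkfb3 and Pkm the KO points lie below the WT points in both injury states, and for Pfkl the KO points lie above the WT points without injury and overlap them after it.

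Of the enzymes from aldolase to pyruvate kinase, 9 of 10 were tested in uninjured muscle. In RPM 7 estimates were above and 2 below 0 (median 0.25), where 36.8% of all genes had estimates above 0. Under the other scalings 6 to 8 were above 0. Pkm was the gene of this stretch with an unadjusted p under 0.05. It stood at 3392, 3371 and 3468 RPM in WT and 1516, 1056 and 2918 RPM in KO. WT libraries were close together (3410.1 ± 50.9 RPM, SD, n = 3) and KO libraries spread widely (1830.1 ± 969 RPM), all of them below WT. The log2 difference was -1.03 (SE 0.37, limma adjusted p = 0.250), and without KO replicate 3, the highest of the 3, it was -1.43 with an adjusted p of 0.0354, within a range of 0.0354 to 0.691 over 17 alternatives. Pkm, with the 3 Myf6 summits described above, was the only gene of the 14 with a peak that had an unadjusted p under 0.05, beside 3 of the 22 tested genes without a peak (Pfkl, Pfkfb1 and Pfkfb3). Gpd1 has no position and is in neither count.

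Aldoa ran the other way from Pkm, at 22520.1, 23645 and 21555 RPM in WT and 33326, 44658 and 24671 RPM in KO. In RPM all KO libraries were above all WT libraries, but KO replicate 3 was only just above, and the log2 difference was 0.56 (SE 0.34, 95% interval -0.20 to 1.32, limma unadjusted p = 0.130). The summed fast fibre markers, 182045 to 204303 RPM in WT and 204868 to 274682 RPM in KO, were also higher in every KO library on this scale. In that list 3 of 11 markers (Actn3, Tnnt3 and Atp2a1) were above WT in every KO library and 1 (Myl1) below, none was at 0, and their part in the result was not tested. The 5 markers of newly formed fibres summed to 665 to 1039 RPM in uninjured WT and 1266 to 2340.4 RPM in uninjured KO muscle, with 1 of 5 (Myh8) above WT in every KO library and Mymk at 0 in at least 1 library; their part was not tested. Gapdh, the dehydrogenase of this stretch, was read at 695, 643 and 1026 RPM in WT and 1614, 664 and 2323 RPM in KO. KO replicate 2 lay among the WT values while the other two were above them, with a log2 difference of 0.81 (95% interval -0.18 to 1.81), and DESeq2 on recovered reads called it (1.07, adjusted p = 0.0263). Pgk1, which makes the first ATP of glycolysis, had a highest value 11.4 times its lowest over the 12 libraries (54.9 to 623 RPM), with WT at 134, 80.3 and 324 and KO at 266, 70.4 and 623 RPM in uninjured muscle. Tpi1 (1763 to 2664 RPM) and Eno3 (7758 to 10178 RPM) were among the steadiest, with a highest value 1.51 and 1.31 times the lowest. Pgam2, which has a summit at its start, overlapped between genotypes at 5524, 6155 and 3906 RPM in WT and 5050.2, 8331 and 2753 RPM in KO (log2 difference -0.066, 95% interval -1.0 to 0.87). The widely expressed forms Eno1 (20.9 to 146 RPM) and Pgam1 (0.394 to 4.90 RPM) had estimates of 0.68 and 0.25 with intervals that held 0.

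Pyruvate and NADH leave glycolysis by lactate dehydrogenase, by the pyruvate dehydrogenase complex or, for NADH, by the glycerol phosphate shuttle. Of the 6 genes of this group, 5 estimates were above 0 in uninjured muscle (median 0.28), where 36.8% of all genes had estimates above 0. Gpd1, the cytosolic enzyme of the shuttle, was at 332, 375 and 388 RPM in WT and 593, 575 and 700.4 RPM in KO, without overlap. Its mean was 1.71 times as high in KO and its log2 difference was 0.77 (SE 0.23, limma adjusted p = 0.196), and DESeq2 called it (0.97, adjusted p = 0.0124) over a range of 0.0124 to 0.686. Fat cells also express Gpd1, and the 5 adipocyte markers summed to 361 to 569 RPM in uninjured WT and to 542 to 1193 RPM in uninjured KO muscle. In that list 2 markers (Cidec and Lep) were above WT in every KO library and none was at 0; their part in the difference was not tested. Slc16a3, the lactate exporter of fast fibres, was at 212, 271 and 271 RPM in WT and 281, 288 and 322 RPM in KO. This separation in RPM was within a narrow range (log2 difference 0.25, 95% interval -0.28 to 0.78). The groups overlapped when mitochondrial genes were left out of the total. Ldha, the muscle lactate dehydrogenase (1363 to 4076 RPM), and Pdha1, a subunit of pyruvate dehydrogenase (95.1 to 371 RPM), overlapped between genotypes. Ldhb, the heart form, overlapped too, at 70.2, 68.6 and 116 RPM in WT and 107, 40.1 and 185 RPM in KO (log2 difference 0.17, SE 0.51, limma adjusted p = 0.911). The lactate importer Slc16a1 (5.04 to 35.4 RPM) was the 1 gene with an estimate below 0 (-0.46, 95% interval -1.75 to 0.84).

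For glucose uptake and phosphorylation, 2 of 5 estimates were above 0 in uninjured muscle in RPM (median -0.02) and 4 of 5 with TMM (median 0.18). Slc2a4, known as Glut4, stood at 453, 566 and 646 RPM in WT and 482, 642 and 518 RPM in KO (log2 difference -0.015, 95% interval -0.59 to 0.56). The muscle hexokinase Hk2 ranged over 109 to 269.6 RPM, and Hk1 over 6.23 to 12.6 RPM, with intervals of -0.94 to 0.60 and -0.43 to 1.13. Gpi1, which turns glucose-6-phosphate into fructose-6-phosphate, was higher in each KO library in RPM, 1277, 1352 and 1124 against 1003, 1005 and 939 in WT, with a log2 difference of 0.34 (95% interval -0.17 to 0.86).

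Glycogen synthesis was the group with limma estimates on 1 side in uninjured muscle. All 6 were below 0 in RPM (median -0.49), where 36.8% of all genes had estimates above 0. Gys1 alone turned to above 0 with TMM and with upper quartile scaling. In the authors' deposited fold changes of KO over WT, Gbe1 (0.71) and Gys1 (0.21) were above 0. Ugp2, Gyg, Ppp1r3a and Ppp1r3c were below 0 there. In the main limma fit none had an unadjusted p under 0.05, and measured from the median of all genes 5 of the 6 were below it. With the replicate number as a block, limma called Ppp1r3a (-0.87, adjusted p = 0.035), where 6.04% of all genes were called. KO and WT libraries share only that number. Ugp2, which makes the UDP-glucose that glycogen is built from, was at 395, 332 and 641 RPM in WT and 229.6, 142 and 466 RPM in KO. KO replicate 3 lay among the WT values, and the log2 difference was -0.82 (SE 0.44, limma adjusted p = 0.430). It was -0.42 without KO replicate 2, -0.55 without WT replicate 3 and -1.27 without KO replicate 3. The glycogen-targeting subunits of protein phosphatase 1, Ppp1r3a (184, 75.5 and 425 RPM in WT, 97.4, 46.4 and 212 RPM in KO) and Ppp1r3c (280.1, 349 and 209.5 and 128, 114 and 418 RPM), overlapped between genotypes. Glycogenin (Gyg), the primer of the granule, had -0.41 (95% interval -1.37 to 0.55) and Gys1 had -0.039 (95% interval -0.88 to 0.80). Gbe1, the branching enzyme, was the most variable gene of all 38, at 13.3, 4.26 and 20.3 RPM in WT and 11.1, 0.551 and 49.9 RPM in KO. Its highest value was 90.6 times its lowest, which came from uninjured KO replicate 2. Its mean RPM was higher in KO (20.5 against 12.6), while its log2 estimate was below 0.

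Glycogen breakdown had 3 estimates above and 2 below 0 in RPM (median 0.16; 4 above 0 with TMM), with no unadjusted p under 0.05. Pygm, the muscle phosphorylase deficient in McArdle disease, ranged over 3772 to 8099 RPM, with a log2 difference of 0.43 (95% interval -0.21 to 1.07). Pygb, the brain form, was at 7.34, 9.04 and 9.26 RPM in WT and 14.9, 7.48 and 16.8 RPM in KO, with KO replicate 2 inside the WT values (log2 difference 0.50, SE 0.37, limma adjusted p = 0.593). The subunits of phosphorylase kinase, which switches phosphorylase on, gave -0.11 for Phka1, -0.44 for Phkg1 and 0.16 for Phkb, each with an interval that held 0.

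The same comparison was made after injury. Again no member passed the limma test at an adjusted p of 0.05, where 0.269% of the 12625 genes tested were called, edgeR called none (0.261% of all genes) and DESeq2 called 2 (3.38% of all genes). At an unadjusted p under 0.05 limma gave 5 of 38 (13.2%), beside 10.3% of all genes. Pygb, Ldhb and Pfkl were higher in KO, and Pfkfb3 and Fbp2 were lower. Estimates were above 0 for 20 and below 0 for 18 members, with a median of 0.02 beside 0.01 over all genes. All KO libraries lay above all WT libraries for 3 members (7.89%; 8.29% of all genes), Hk1, Ldhb and Pygb. They lay below for another 3 (7.89%; 8.63% of all genes), Pfkfb3, Pkm and Slc2a4. These counts are of RPM, and Hk1 and Slc2a4 overlapped when mitochondrial genes were left out of the total.

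Pygb was read at 7.13, 3.71 and 8.61 RPM in injured WT and 24.3, 13.0 and 14.3 RPM in injured KO muscle, with no overlap. The mean was 2.65 times as high in KO, and the log2 difference was 1.29 (SE 0.35, 95% interval 0.47 to 2.11, limma adjusted p = 0.296). DESeq2 called it, with 1.42 and an adjusted p of 0.0232, the lowest of a range that reached 0.894. Ldhb was at 66.9, 60.4 and 65.1 RPM in WT and 186, 70.2 and 185 RPM in KO. KO replicate 2 was just above the highest WT library and the other two were far above, with a mean 2.29 times as high and a log2 difference of 1.06 (SE 0.38, limma adjusted p = 0.417). Without KO replicate 2 it was 1.52 (limma adjusted p = 0.00233, in a range of 0.00233 to 0.969). Pfkl stood at 12.3, 10.1 and 9.19 RPM in WT and 37.5, 10.9 and 23.9 RPM in KO, and here KO replicate 2 lay among the WT values. Its log2 difference was 0.98 (SE 0.41, limma adjusted p = 0.483). It was 1.44 without KO replicate 2 (limma adjusted p = 0.0108, in a range of 0.0108 to 0.981) and 0.59 without KO replicate 1.

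Ldhb is the lactate dehydrogenase of heart and slow fibres, and Pygb and Pfkl are forms typical of other organs. The 8 slow fibre markers summed to 336 to 1393 RPM in injured WT and 1614 to 5468 RPM in injured KO muscle, with 5 of 8 (Myh7, Myh7b, Tnnt1, Tnnc1 and Myl2) above WT in every KO library. In uninjured muscle the sums were 1263 to 1589 RPM and 1616 to 3549.7 RPM, with 3 of 8 separated (Myh7, Tnnt1 and Tnnc1), and no slow marker was at 0 in a library. The part of fibre type in the values of Ldhb, Pygb and Pfkl was not tested. Of the 11 fast fibre markers in injured muscle, 3 (Mylpf, Myl1 and Pvalb) were below WT in every KO library and 1 (Actn3) above, with sums of 188726 to 226130 RPM in WT and 179025 to 208997 RPM in KO; their part was not tested. The 4 Schwann cell markers summed to 150 to 489.9 RPM in injured WT and 308 to 1740 RPM in injured KO muscle, none of the 4 was separated, and KO replicate 2 was the highest; their part was not tested either.

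Among the genes lower in injured KO muscle, Pfkfb3 was at 798, 579 and 667 RPM in WT and 467, 440.2 and 373 RPM in KO, without overlap. The log2 difference was -0.67 (SE 0.20, limma adjusted p = 0.342), DESeq2 called it with an adjusted p of 0.0331, and the range over 17 alternatives was 0.0331 to 0.971. Pkm was at 3177, 3944 and 3583 RPM in WT and 2386, 736 and 2542 RPM in KO. Every KO library was below every WT library, with a log2 difference of -1.11 (SE 0.48, limma adjusted p = 0.499) that was -0.53 without KO replicate 2. Pfkfb3 and Pkm were the members with every KO library below every WT library in both states, 2 of 38 (5.26%) beside 3.16% of 12214 genes, and no member was above in both, beside 2.13%. Fbp2, which carries the Myf6 summit at its start, was at 114, 75.2 and 83.2 RPM in WT and 76.1, 51.3 and 52.5 RPM in KO. KO replicate 1 was just above the lowest WT library, and the log2 difference was -0.59 (SE 0.24, limma adjusted p = 0.467). Of the 14 genes with a peak it was the 1 with an unadjusted p under 0.05, beside 4 of 22 without a peak. Slc2a4 was lower in each KO library in RPM, 450.2, 493 and 481 against 553, 708 and 632, with a log2 difference of -0.40 (95% interval -0.82 to 0.018).

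Gpd1, Pfkfb1, Aldoa and Ugp2 overlapped between genotypes after injury. Gpd1 was at 385, 454 and 379 RPM in injured WT and 654, 373 and 600 RPM in injured KO muscle (log2 difference 0.38, SE 0.25, limma adjusted p = 0.650). Pfkfb1 was at 71.7, 68.7 and 60 and 43.4, 77.3 and 51.5 RPM (-0.25, SE 0.24, limma adjusted p = 0.756), with the highest value in KO replicate 2. Aldoa was at 26853, 26482 and 23053 and 24726, 22652 and 25684 RPM (-0.063, 95% interval -0.72 to 0.60), and Ugp2 at 328, 537 and 507 and 444, 202 and 416 RPM (-0.42, SE 0.36, limma adjusted p = 0.728), which was -0.056 without KO replicate 2 and -0.64 without WT replicate 1.

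By role after injury, 5 of 6 estimates were below 0 for glycogen synthesis (median -0.32), with Gbe1 the exception. For phosphofructokinase and its regulators 5 of 7 were below 0 (median -0.25). For the fate of pyruvate and NADH 5 of 6 were above 0 (median 0.31). Over all genes 52.0% of estimates were above 0 in injured muscle. Glucose uptake and phosphorylation had a median of 0.10, lower glycolysis 0.04 and glycogen breakdown 0.05 in RPM, and the last pair turned to -0.03 each with upper quartile scaling.

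Isoform pairs were compared by the log2 ratio of (RPM + 1) within a library. For 11 pairs in each injury state an exact permutation test of 3 against 3 libraries was made, two-sided, whose smallest possible p is 0.1, so no pair could pass 0.05. Muscle-type over liver-type phosphofructokinase (Pfkm/Pfkl) was 8.00, 8.39 and 8.44 in uninjured WT and 6.78, 6.68 and 6.96 in uninjured KO muscle. The groups lay apart by -1.47 (SE 0.16, exact permutation p = 0.1, adjusted over the 11 pairs 0.733). After injury it was 7.52, 8.51 and 8.27 in WT and 6.55, 7.21 and 7.49 in KO, again apart, by -1.02 (SE 0.41, exact permutation p = 0.1, adjusted 0.275). This was the pair that did not overlap in both states.

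In injured muscle 3 more pairs did not overlap, each with a lower ratio of the muscle form to its partner in KO and an exact permutation p of 0.1 (adjusted 0.275). The share of other gene pairs without overlap was not computed, so no conclusion is drawn from the number of such pairs. Muscle over heart lactate dehydrogenase (Ldha/Ldhb) was 4.96, 5.83 and 5.36 in WT and 4.40, 4.32 and 4.45 in KO. Muscle over brain phosphorylase (Pygm/Pygb) was 9.38, 10.60 and 9.11 in WT and 8.22, 8.07 and 8.94 in KO. The insulin-responsive over the general glucose transporter (Slc2a4/Slc2a1) was 5.96, 6.33 and 5.59 in WT and 5.35, 5.12 and 5.49 in KO. The muscle forms Ldha, Pygm and Slc2a4 had log2 differences of 0.061, 0.005 and -0.40, and their partners Ldhb, Pygb and Slc2a1 had 1.06, 1.29 and 0.24. In uninjured muscle all 3 overlapped, with differences of 0.14, -0.069 and 0.22. The pairs Hk2/Hk1, Pfkm/Pfkp, Pfkfb1/Pfkfb3, Aldoa/Aldoc, Pgam2/Pgam1, Eno3/Eno1 and Slc16a3/Slc16a1 overlapped in both states. Aldoa/Aldoc rests on an Aldoc near 0 and Pgam2/Pgam1 on a Pgam1 of 0.394 to 4.90 RPM.

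**Figure D4:**
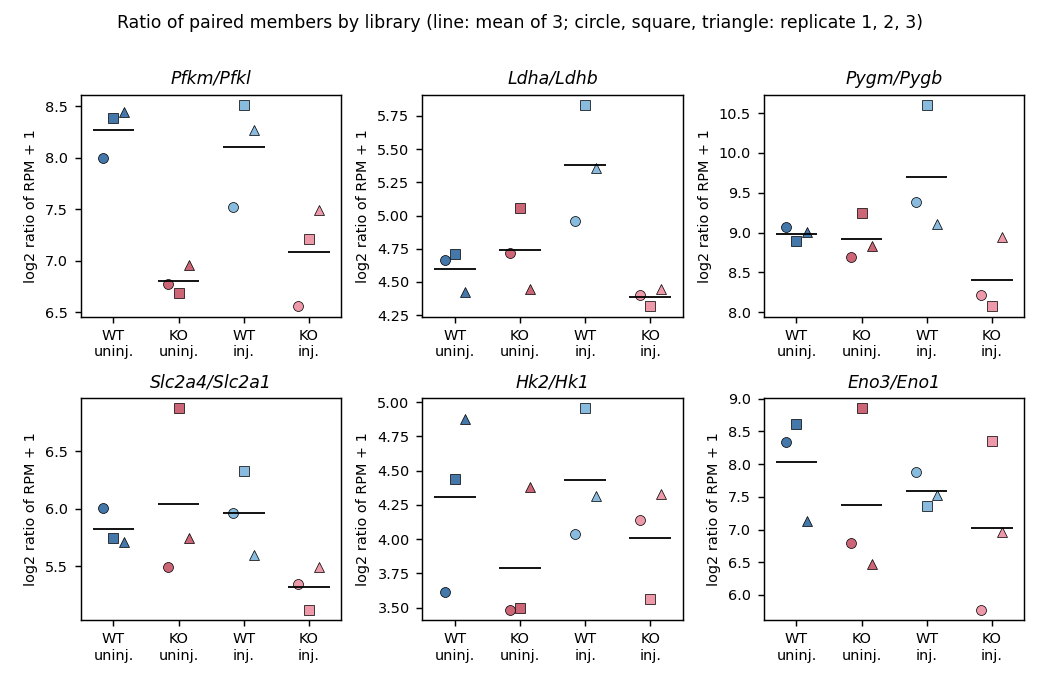
Log2 ratio of 6 isoform pairs in each of the 12 libraries by group, with a line at the group mean. The Pfkm/Pfkl ratio lies lower in KO than in WT in both injury states, and Ldha/Ldhb, Pygm/Pygb and Slc2a4/Slc2a1 lie lower in KO after injury.

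Injured was compared with uninjured muscle within each genotype in 1 limma fit of the 12 libraries. In WT no member was called at an adjusted p under 0.05 (0% of 13337 genes) and none at an unadjusted p under 0.05 (1.29% of all genes), with 32 estimates above and 6 below 0 and a median of 0.17 beside 0.09 over all genes. In KO none was called (0% of all genes) and 2 of 38 (5.26%) had an unadjusted p under 0.05, beside 3.51% of all genes. The members' median was 0.19 in RPM and -0.10 with TMM, and that of all genes 0.29 and 0.05. The 2 genes were Pfkfb1, with a log2 difference of 0.67 (SE 0.28, limma adjusted p = 0.728), and Pfkfb3, with 0.60 (SE 0.28, limma adjusted p = 0.728). By pair the log2 differences in KO were 0.54, 1.42 and 0.06 for Pfkfb1 and 0.49, 1.31 and 0.02 for Pfkfb3, so both were largest in pair 2 and near 0 in pair 3. Between same-numbered libraries, 10 of 38 members (26.3%) were higher in the injured library of all 3 WT pairs (Pfkfb3, Aldoa, Eno3, Ldha, Pygm, Phka1, Phkg1, Gys1, Gyg and Fbp2), beside 17.5% of all genes. In all 3 WT pairs 3 members (7.89%) were lower (Pfkp, Ldhb and Pygb), beside 8.50%. In all 3 KO pairs 5 members (13.2%) were higher (Pfkfb1, Pfkfb3, Gyg, Slc2a1 and Ppp1r3a), beside 19.8%, and 2 (5.26%) were lower (Slc2a4 and Slc16a3), beside 3.85%. On recovered reads edgeR and DESeq2 called no member in these comparisons either (0% of all genes).

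The interaction asks whether the difference between genotypes changed with injury. No member was called by limma (0% of all genes), by edgeR or by DESeq2, and none had an unadjusted p under 0.05, beside 1.56% of all genes. The smallest p was that of Pfkfb1, with an interaction of 0.74 in log2 units (SE 0.39, limma adjusted p = 0.9999). The lists of members with an unadjusted p under 0.05 in uninjured and in injured muscle share Pfkl and Pfkfb3. For Gpd1, Pkm, Pfkfb1, Pygb, Ldhb and Fbp2, each in 1 list, a difference between the states was not shown.

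Much of the variation among these genes followed single libraries, in WT as in KO. In uninjured WT muscle, replicate 3 was the highest of its group for 25 of 38 members (65.8%, beside 52% of all genes). In injured WT muscle, replicate 2 was the highest for 24 (63.2%, beside 30%). Both had the smallest mitochondrial share of their group (13.8% and 8.35%), whose part was not tested. In uninjured KO muscle, replicate 2 was the lowest of its group for 31 of 38 members (81.6%, beside 68.2% of all 12460 genes) and replicate 3 the highest for 29 (76.3%, beside 58.9%). KO replicate 2 was the highest for 5 members, Gpi1, Aldoa, Pgam2, Eno3 and Slc2a4. In injured KO muscle, replicate 2 was again the lowest for 30 members (78.9%), beside 46.6% of all 12625 genes. It was the highest for 7 (18.4%), Hk1, Pfkp, Pfkfb1, Pfkfb4, Pgam2, Slc2a1 and Slc2a4, beside 45.6% of all genes. These 2 libraries carry the same number and have the largest mitochondrial shares of the KO libraries, and the part of either in the member values was not tested. The share of uninjured KO replicate 2 lay within the range of uninjured WT. Without injured KO replicate 2, limma called 9 of 38 members in injured muscle (Eno1, Gbe1, Gpd1, Ldhb, Pdha1, Pfkfb3, Pfkl, Pgam1 and Pygb), 8 of them higher in KO, and 2343 of 12312 genes (19.0%).

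**Figure D5:**
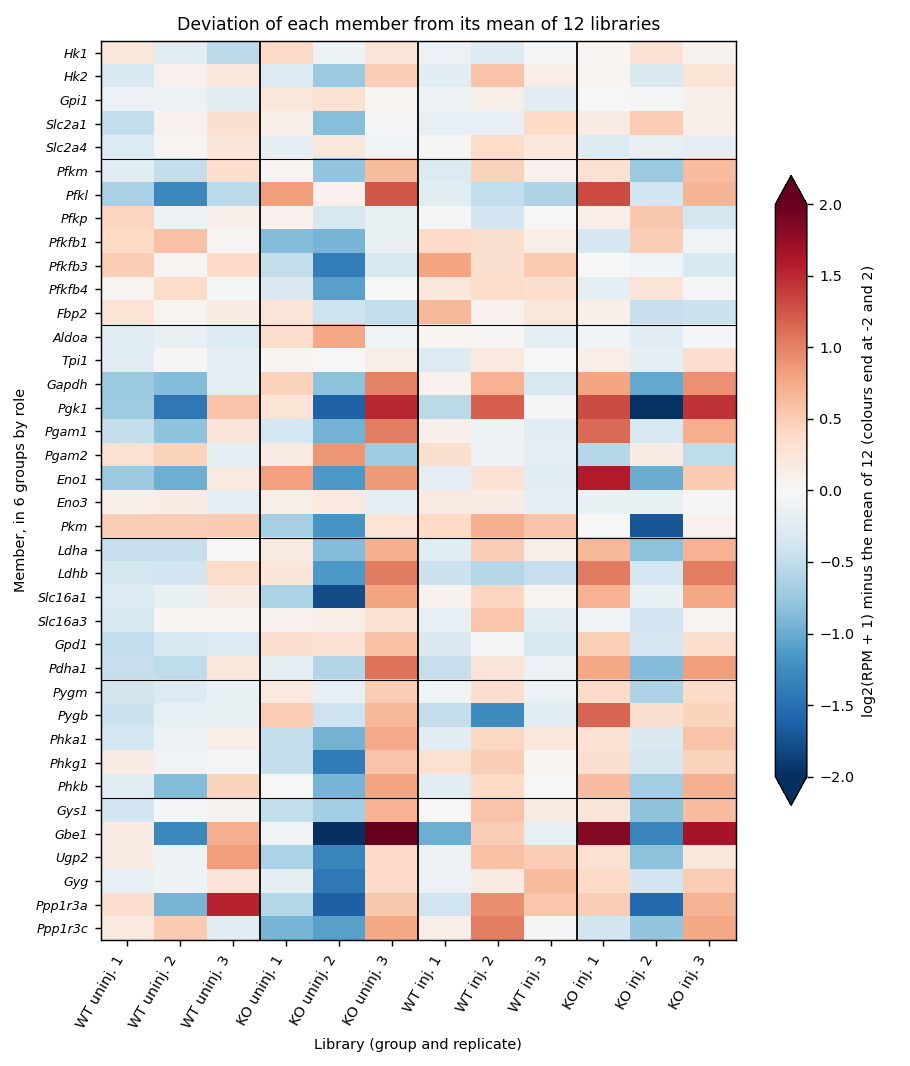
Heat map of 38 members, ordered by role, in 12 libraries: log2(RPM + 1) minus the member's mean over the 12 libraries, with colours that end at -2 and 2. The columns of KO replicate 2, uninjured and injured, are low for most members, and Pfkl and Pkm differ between WT and KO in opposite directions.

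Related genes outside the 39 were taken from a list of 65 further genes of glucose, glycogen and pyruvate metabolism, of which 54 were tested in uninjured and 56 in injured muscle. No gene of it was called by limma in either state. At an unadjusted p under 0.05 there were 8 in uninjured muscle (14.8%; 3 higher and 5 lower in KO) and 4 in injured muscle (7.14%; 1 higher and 3 lower), beside the 14.2% and 10.3% of all genes. Tbc1d4, which holds Slc2a4 vesicles inside the fibre until insulin acts, was at 68.6, 36.7 and 50.9 RPM in uninjured WT and 13.4, 10.4 and 26.1 RPM in uninjured KO muscle (log2 difference -1.64, SE 0.39, limma adjusted p = 0.124). After injury it was at 62.7, 51.3 and 46.5 RPM in WT and 19.7, 19.5 and 25.9 RPM in KO (log2 difference -1.27, SE 0.20, limma adjusted p = 0.0808). Its genotypes did not overlap in either state. Mlxipl, the carbohydrate response factor ChREBP, was at 107, 136 and 94.7 RPM in uninjured WT and 55.5, 39.4 and 48.4 RPM in uninjured KO muscle (-1.21, limma adjusted p = 0.101), and the ADP-dependent glucokinase Adpgk at 21.4, 19.1 and 18.6 and 8.86, 6.61 and 7.01 RPM (-1.29, limma adjusted p = 0.115). Mpc2, a subunit of the mitochondrial pyruvate carrier, was lower in KO in both states by estimate, at -1.03 and -0.47. Pygl, the liver phosphorylase, had 1.04 in uninjured muscle, on the same side as Pygb. In injured muscle Pfkfb2 had -1.17, Pdk3 0.62 and Gsk3a 0.36, none called.

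Several members have near copies in the mouse genome, and how reads that match more than 1 place were counted is not given in the sources used here. The tables list 10 genes named as pseudogenes or related sequences of Gapdh, Ldha, Pgk1, Aldoa or Pgam1, of which Gapdh-ps14 reached 17.1 RPM and the other 9 stayed under 1 RPM. Eno1b, close in sequence to Eno1, ran from 0 to 16 RPM, with 0 to 3.82 RPM in WT and 3.10 to 16 RPM in KO. The values of Eno1, Gapdh, Pgk1, Pgam1, Ldha and Aldoa are uncertain by what such copies share with them.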

How the data were processed

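Per the labels' protocols, RNA was extracted with Trizol and made into TruSeq RNA v2 libraries. For 49585 genes the authors deposited values in RPM, with the same total in every library. Their tables also hold, per the file headers, a deposited log2 fold change of WT over KO and its error for every gene. A p-value and its adjusted form, the q-value, stand beside it in the deposited tables. The sign was turned here to KO over WT. The submitters' processing notes name HISAT2 2.1.0, featureCounts, SAMtools, DESeq2, Bowtie 1.1.0 and MACS2 2.1.0.20140616 without saying which made which value. Per the file headers, the deposited peak list gives position, pileup signal at the summit, fold enrichment and significance as −log10. It was called on 1 library with 1 control, and its positions were read as GRCm38.

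Genes that reached 1 RPM in 3 or more of the libraries compared were tested with limma 3.58.1 (R 4.3.3; lmFit, eBayes with trend) on log2(RPM + 1), two-sided, with Benjamini-Hochberg adjustment over all genes and a threshold of 0.05. Fold changes are on that scale, which understates low genes. KO was compared with WT within an injury state on 6 libraries, and injury and its interaction with genotype on 12. RPM values of low counts, the only ones checked, were whole multiples of 1 read in 100% of cases within 0.1 read. Higher values were rounded to whole reads without this check. On the recovered reads edgeR 4.0.16 (55 genes called in uninjured, 33 in injured muscle) and DESeq2 1.42.0 served as alternatives. The scripts were tested on simulated data. The alternatives also covered scaling, pseudocount, filter, replicate block and leaving out each library.

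For injury comparisons, libraries of a genotype that share a number were taken as pairs, on the assumption, not stated in the labels, that the number names the animal. Their deviations from the group mean correlated at 0.02 on average in WT (-0.23 to 0.28) and 0.39 in KO (0.02 to 0.63), and the block changed no call of a member.

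The members and lists were chosen with earlier results of these data known. Full statistics are given for members with an unadjusted p under 0.05, or among the 6 smallest, in a KO against WT comparison, and further pathway genes are named by the 5 smallest p. Counting floors cover counting error only. Protein sequences were not used here.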

Additional observations from a re-analysis of the deposited data

How the results depend on the processing

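Of 580 alternative values, 539 were counted as the same as the main value, by a rule that differed with the kind of value. For a gene it was direction and side of the threshold, and for an isoform ratio direction alone. For a count of members it was a fixed limit on the fold between the counts. For a median it was a shift smaller than the spread between libraries. In uninjured muscle the count of members called was 0 with limma. It was 1 with TMM, 1 with upper quartile scaling, 1 with edgeR, 4 with DESeq2 and 1 by the authors' deposited q-values. With each library left out in turn it was 0 to 1. After injury the count was 2 with DESeq2 and 0 to 9 with each library left out, 9 without KO replicate 2. The injury comparisons and the interaction gave 0 throughout. Over all genes, limma called 35 without injury, and 110 were called with TMM, 122 with upper quartile scaling, 199 outside mitochondrial genes, 55 with edgeR and 663 with DESeq2. After injury limma called 34 and DESeq2 427.

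KO and WT libraries share only a replicate number. Same-numbered libraries correlated at 0.22 on average without injury and at -0.45 with it. With a replicate block 3 members (Pfkl, Pfkfb3 and Ppp1r3a) and 752 genes were called without injury, and 0 members and 0 genes with it.

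With a library left out, some small differences changed sign. The log2 difference of Ldhb without injury ran from -0.32 to 0.77. Ratios without injury ran from -0.14 to 0.29 for Pfkfb1/Pfkfb3, -1.13 to 0.65 for Pgam2/Pgam1, -0.018 to 0.28 for Ldha/Ldhb, -0.23 to 0.046 for Pygm/Pygb and -0.20 to 0.49 for Slc2a4/Slc2a1. After injury they ran from -0.78 to 0.32 for Pfkm/Pfkp and -1.22 to 0.063 for Eno3/Eno1. The members' median ran from -0.26 to 0.24 without injury and -0.20 to 0.20 with it. The cause of these changes was not tested. Members with a peak numbered 14 (37.8%; 28.2% of all genes) and 18 with 20000 bases upstream (48.65%; 35.5%). They numbered 3 within 1000 bases of a start (8.11%; 4.37%) and 2 at a fold enrichment of at least 10 (5.4%; 10.4%). The depth of WT uninjured replicate 2 limits low genes such as Pgam1, Aldoc, Gbe1 and Pfkl.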
